A study of Homo sapiens with 36 samples.

Results

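The 37 genes described here encode nucleolar proteins that build ribosomes, together with subunits and factors of RNA polymerase I. They are a list of names, set with no threshold on a measured value but with earlier results of these data known. They were taken from 35444 gene symbols with a transcript in the deposited tables, and all 37 were measured and passed the filter on low values in both lines. Those lines, MOLM-13 and MONO-MAC-6, are established human acute myeloid leukaemia lines, and the labels give both as wild type. Each line was grown for 72 h with DMSO, the vehicle, or with A9, a PROTAC, a molecule built to bring proteins to the degradation machinery of the cell. The series design names IKK2 and NR4A1 as the targets of A9, and the title names IKK1 and NR4A1. MOLM-13 received 0.125 µM A9 and MONO-MAC-6 received 0.25 µM, so dose and line cannot be told apart wherever the lines are compared. The 36 libraries formed 4 groups of 9, and each library carried a first and a second number. The mean of the 3 libraries with the same first number was taken as 1 sample, so each group had 3 samples. The labels do not say that these samples came from separate cultures, so the p-values measure the spread between these samples, which may be technical.

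Ribosome production starts in the nucleolus, where RNA polymerase I transcribes the precursor of the large ribosomal RNAs. Small nucleolar ribonucleoproteins (snoRNPs) modify this RNA, the small subunit processome and the 60S assembly factors cut and fold it, and helicases and chaperones accompany the pre-ribosomes to the nuclear pore. Many genes of the pathway are known targets of the transcription factor MYC. Nucleolar activity is typically high in fast-growing leukaemia cells.

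Levels are TPM, a unit in which transcript length is divided out and every library has one common total, and all differences are of log2(TPM + 1). TPM keep no read counts, so the depth of each library is unknown. Of 10 acute myeloid leukaemia and monocyte markers, 8 or 9 reached 1 TPM in each group. Of 5 T cell markers, 0 reached it in MOLM-13, and CD3E and CD2 were at 0 in all samples. In both MONO-MAC-6 groups 1 reached it, CD8A, at 2.0 to 3.8 TPM. Of 5 B cell markers, 2 reached it in both MONO-MAC-6 groups and in MOLM-13 DMSO, and 1 in MOLM-13 A9. Of 4 erythroid markers, 0 reached it in MOLM-13 and 1 in both MONO-MAC-6 groups, HBA1, at 2.3 to 8.6 TPM. Of 4 epithelial or fibroblast markers, 1 reached it in MONO-MAC-6 A9, COL1A1 at 1.2 TPM in sample 3, and 0 in the other groups. Ribosomal protein genes held 26.8% of TPM in MONO-MAC-6 DMSO sample 1, which stood apart from the 17.5% to 20.1% of the other MONO-MAC-6 samples. In MOLM-13 they held most in A9 sample 3, at 31.0%, but without a clear gap. DMSO sample 3 followed at 29.7%, and the other MOLM-13 samples were at 25.6% to 27.55%. In bulk RNA, fewer cells of a type and less RNA per cell cannot be told apart.

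No ribosome biogenesis gene passed the test for A9 against DMSO in either line. In MOLM-13, limma called 0 of 37 members at an adjusted p under 0.05, where 0.121% of all 11591 genes tested were called. In MONO-MAC-6 it called 0 of 37, where 3.37% of 12863 genes were called. At an unadjusted p under 0.05, 1 member passed in MOLM-13 (FBL, background 7.90%) and 4 passed in MONO-MAC-6 (RRP12, RRS1, RRP9 and UBTF, background 20.5%). Both shares of members lie below their backgrounds.

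The members' median log2 fold change lay below that of all genes in MOLM-13 and close to it in MONO-MAC-6. In MOLM-13 it was -0.14, with 6 of 37 above 0, beside -0.05 over all genes, with 4498 of 11591 above 0. In MONO-MAC-6 it was 0.17, with 27 of 37 above 0, beside 0.16 over all genes, with 9063 of 12863 above 0. Scaling the samples by median ratios moved the all-gene median of MONO-MAC-6 to 0.01 and that of the members to -0.0031, with 17 of 37 above 0. The same scaling gave a members' median of -0.09 in MOLM-13, with 11 of 37 above 0. The 95% intervals give the range of differences these samples allow. In MOLM-13, 35 of 37 intervals lay within 1 log2 unit of 0 on both sides, POLR1A and WDR3 being the exceptions, and 23 lay within 0.5. In MONO-MAC-6, 31 intervals lay within 1 log2 unit, and 16 lay within 0.5. The other 6 were POLR1A, POLR1B, UTP20, WDR3, NOP2 and DDX21.

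**Figure D1:**
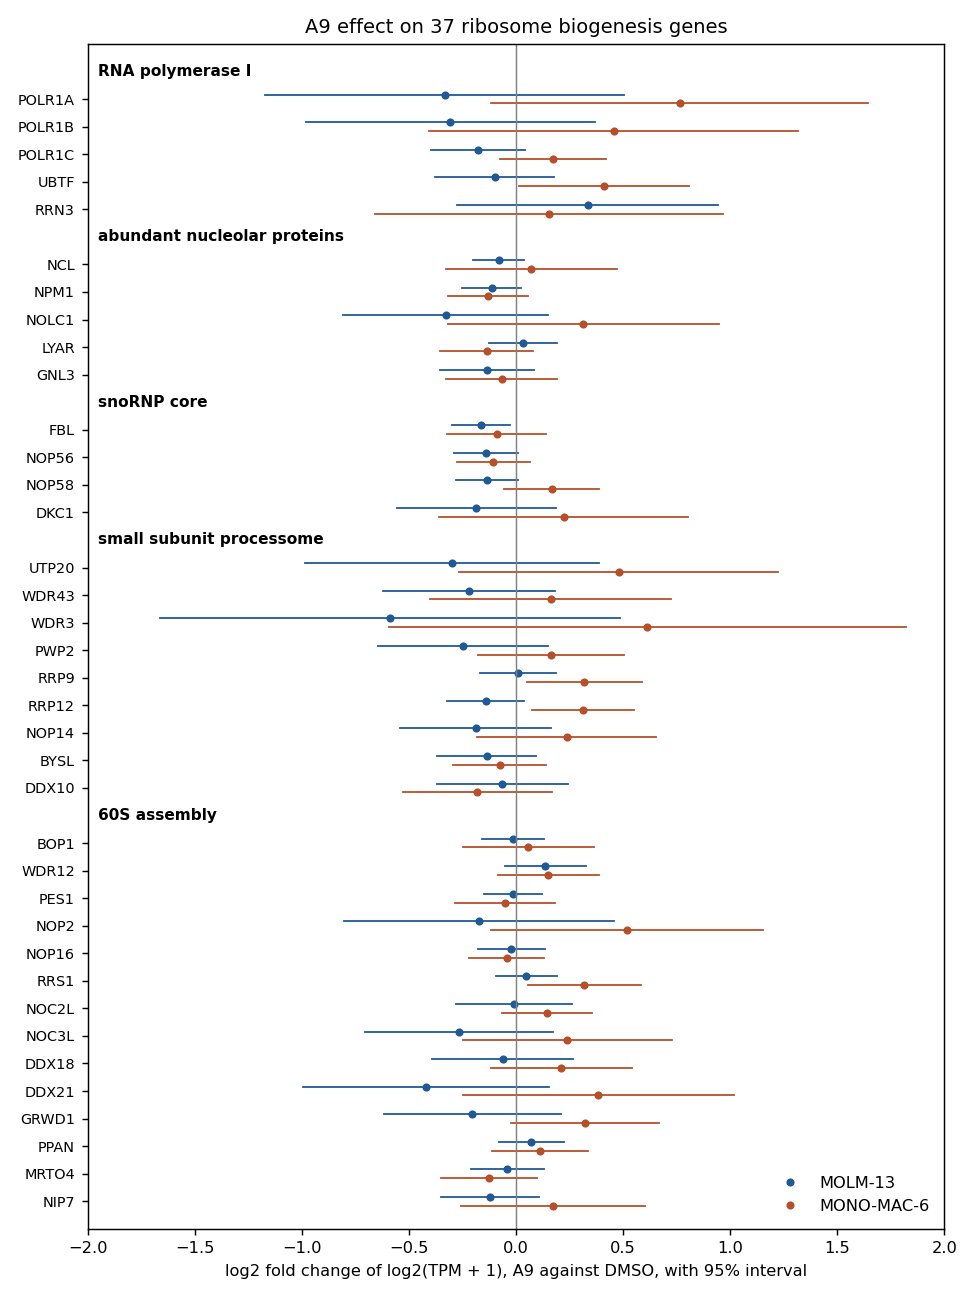
Log2 fold change of log2(TPM + 1), A9 against DMSO, for each of the 37 members, grouped by role. Points are limma estimates from 3 samples per group, bars are 95% intervals, blue is MOLM-13 and orange is MONO-MAC-6. Most bars cross 0, and 22 members have a negative estimate in MOLM-13 and a positive one in MONO-MAC-6.

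Those counts rest on the first library number as the sample. Libraries sharing a first number differed little, with a median SD over the members of 0.038 log2 units in MOLM-13 and of 0.047 for MONO-MAC-6. Samples of one group differed more, with median SDs of 0.12 and 0.17, and 35 of 37 members in each line had the larger SD between samples. If the second number marked the sample instead, each average would hold one library of every first number. Differences between first numbers then cancel, and the spread left is that among libraries sharing a first number. Where such libraries repeat the same sample, the calls that follow treat repeats as replicates. Limma then called 27 of 37 members in MOLM-13, 25 of them lower, where 46.9% of all genes were called and 30.7% were called lower. In MONO-MAC-6 it then called 33 of 37, 25 of them higher, where 67.6% of all genes were called and 49.4% were called higher. For the difference of the A9 effect between the lines, described later, it then called 28 of 37, against 63.4%. Which number marks separately treated cells is not given in the sources used here.

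A feature of some members, outside the choice of genes, was a sequence in their promoters. RefSeq promoters of GRCh38.p14, each 250 bases before to 50 after the annotated start, were at hand for 31 of the 37 members. The E-box CACGTG, a palindrome that MYC with its partner MAX binds, was found in 14 of the 31 promoters (45.2%). It was found in 8.78% of the 27305 genes in the table, and in 12.8% of the 9893 genes that were both in it and tested. Of the 14 E-boxes, 13 began within 50 bases of the start. For the 10 that lie after the start this was fixed, because the promoters end there at 50 bases. Of the 4 before the start, the E-box of LYAR was the farthest, at 64 bases. The positions in promoters of other genes are not given here. The motif CCGGAAG of ETS factors, searched on both strands, was also in 14 of 31 promoters, against 23.1% of the tested genes. The palindromic motif of NRF1 was in 2 of 31, against 2.72%. By their letters, an E-box and an ETS match cannot share bases. The 6 windows below belong to members whose levels are described in later paragraphs, are read on the strand of the gene, and show the E-box in capitals.
FBL: tgcgctcttttcCACGTGcgaaagccccgg
RRP9: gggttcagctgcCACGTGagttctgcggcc
UTP20: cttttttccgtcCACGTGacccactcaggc
PES1: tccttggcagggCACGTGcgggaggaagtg
GNL3: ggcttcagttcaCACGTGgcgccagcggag
DDX21: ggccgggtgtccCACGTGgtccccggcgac
The FBL window lies at chr19:39846356-39846385 on the minus strand, and its E-box begins 7 bases after the start. RRP9 lies at chr3:51941892-51941921 on the minus strand, with the E-box 5 bases before the start, and UTP20 at chr12:101280083-101280112 on the plus strand, 10 bases before it. PES1 lies at chr22:30591880-30591909 on the minus strand, with the E-box 14 bases after the start. GNL3 lies at chr3:52686026-52686055 on the plus strand, 7 bases after it. The DDX21 window is at chr10:68956604-68956633 on the plus strand, and its E-box begins 31 bases before the start. A match describes these letters and does not show binding. The 14 members with an E-box had a median log2 fold change with A9 of -0.17 in MOLM-13, and the 17 without one had -0.11. In MONO-MAC-6 the medians were 0.16 and 0.15.

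MYC, which is not a member, had its lowest sample in each line where many members had theirs. In MOLM-13 it was at 244, 266 and 145 TPM with A9 and at 305, 278 and 254 TPM with DMSO. Its log2 fold change was -0.40 (SE 0.23, limma adjusted p = 0.778). MONO-MAC-6 samples had it at 231, 204 and 221 TPM with A9 and at 124, 217 and 248 TPM with DMSO, an estimate of 0.21 (SE 0.25, adjusted p = 0.603 by limma). Those lowest values were in MOLM-13 A9 sample 3 and MONO-MAC-6 DMSO sample 1. Most genes were low in these samples, so this is not particular to MYC and the members. In MOLM-13 A9 sample 3, 8969 of 11591 genes were below the mean of A9 samples 1 and 2. In MONO-MAC-6 DMSO sample 1, 9763 of 12863 genes were below the mean of DMSO samples 2 and 3. What part MYC had in the members' levels was not tested.

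The 37 genes spanned a wide range of levels under DMSO. NPM1, nucleophosmin, was first in both lines, with 2024 ± 70.0 TPM (SD, n = 3) in MOLM-13 and a mean of 1502 TPM in MONO-MAC-6. In MOLM-13 it was followed by NCL at 686 TPM, FBL at 552 TPM and NOP56 at 357 TPM, and each of these was apart from the next in all samples. In MONO-MAC-6 the order was FBL at 776 TPM, NOP56 at 578 TPM, NCL at 478 TPM and GNL3 at 289 TPM, again with no overlap between neighbours. Below the first 6, most neighbours in the order overlapped. The lowest were RRN3 at 9.82 TPM in MOLM-13 and UTP20 at 3.79 TPM in MONO-MAC-6. NPM1 alone held 28.5% to 32.7% of the members' summed TPM in MOLM-13 samples and 24.3% to 29.1% in MONO-MAC-6 samples. NPM1 has many processed pseudogenes, and how the authors' quantification divided reads among them is not known.

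Levels also differed between the lines, given here without a test because each line was deposited in its own table. Under DMSO, 23 of 37 members (62.2%) had no overlap between the lines, where 59.0% of 12915 genes had none. All MONO-MAC-6 samples were lower for 18 members (48.6%), against 24.1% of genes, and higher for 5 (13.5%), against 34.9%. UTP20, a scaffold of the small subunit processome, had the widest gap between means. It was at 20.3, 14.5 and 11.6 TPM in MOLM-13 and at 1.74, 4.66 and 4.96 TPM in MONO-MAC-6. RRP12, which acts in maturation and export of pre-40S particles, averaged 62.4 TPM in MOLM-13 and 18.7 TPM for MONO-MAC-6, 3.35-fold apart. The helicase DDX21 averaged 230 TPM and 85.3 TPM, which is 2.70-fold. MONO-MAC-6 DMSO sample 1 was the lowest of its group for UTP20 and DDX21, but not for RRP12. It widened the gaps of UTP20 and DDX21, and the order of UTP20 and RRP12 depends on it. RRS1, which helps to place 5S RNA in the 60S subunit, averaged 80.4 and 39.1 TPM, and PES1 averaged 147 and 75.2 TPM. The 5 members higher in MONO-MAC-6 were NOP56 (1.62-fold), FBL (1.41-fold), PWP2 (1.37-fold), GNL3 (1.28-fold) and LYAR (1.10-fold).

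**Figure D2:**
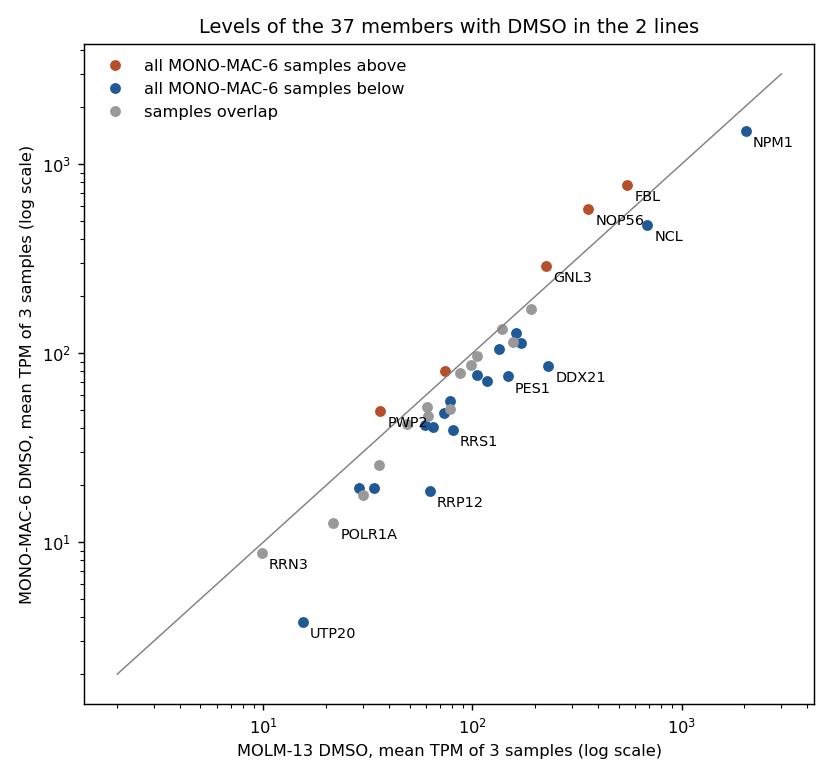
Mean TPM of each member over 3 DMSO samples in MOLM-13 (x axis) and MONO-MAC-6 (y axis), both on log scales, with the line of equality. Orange points had all MONO-MAC-6 samples above, blue points had all below, and grey points overlapped. UTP20, RRP12 and DDX21 lie farthest below the line.

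Of the 5 RNA polymerase I genes, POLR1A, POLR1B and RRN3 had intervals beyond 0.5 log2 units in both lines, and POLR1C in neither. POLR1A, the largest subunit, was at 16.6, 26.1 and 10.3 TPM with A9 and at 28.9, 18.8 and 17.2 TPM with DMSO in MOLM-13. The groups overlapped, and the log2 fold change was -0.33 (95% interval -1.17 to 0.51). In MONO-MAC-6 it was at 21.5, 20.0 and 19.1 TPM with A9 and at 5.97, 13.1 and 18.8 TPM with DMSO. All A9 samples were above, the third DMSO sample only just below them, and the log2 fold change was 0.76 (SE 0.36, limma adjusted p = 0.293). Without DMSO sample 1, which had the lowest value, it was 0.35.

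POLR1B, the second-largest subunit, had log2 fold changes of -0.31 (SE 0.28) and 0.46 (SE 0.36) in the lines, given here and below with MOLM-13 first. They were -0.05 without A9 sample 3 of MOLM-13 and 0.04 without DMSO sample 1 of MONO-MAC-6. POLR1C, a subunit shared with RNA polymerase III, had -0.18 (SE 0.09) and 0.17 (SE 0.10). UBTF, the factor that binds the ribosomal DNA promoter, was at 101, 110 and 84.8 TPM with A9 and at 114, 106 and 96.3 TPM with DMSO in MOLM-13. In MONO-MAC-6 it was at 104, 98.3 and 98.9 TPM with A9 and at 57.5, 84.7 and 87.0 TPM with DMSO. There the A9 samples were all above, with an estimate of 0.41 (SE 0.17, adjusted p = 0.233 by limma). RRN3, which brings the polymerase to the promoter, was the only one of the 5 with a positive estimate in MOLM-13, 0.33 (SE 0.25). Its libraries were the least repeatable of the members in both lines, with SDs among libraries of one sample of 0.58 and 0.63.

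Among the abundant nucleolar proteins, NPM1 and NCL had small differences. NPM1 was at 1897, 1800 and 1915 TPM with A9 and at 1944, 2054 and 2075 TPM with DMSO in MOLM-13. In MONO-MAC-6 it was at 1412, 1338 and 1360 TPM with A9 and at 1572, 1518 and 1416 TPM with DMSO. All A9 samples lay below all DMSO samples in both lines, and the log2 fold changes were -0.11 (SE 0.06, limma adjusted p = 0.738) and -0.13 (SE 0.08, limma adjusted p = 0.366). The count of members with all A9 samples below was 6 of 37 in MOLM-13 (16.2%, background 6.43%) and 2 of 37 in MONO-MAC-6 (5.41%, background 10.7%). The count with all A9 samples above was 0 of 37 in MOLM-13 (background 8.59%) and 9 of 37 in MONO-MAC-6 (24.3%, background 27.2%). Of these shares, only that below in MOLM-13 exceeded its background. In either direction, MOLM-13 had 16.2% of members beside 15.0% of genes.

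NCL, nucleolin, was at 645, 656 and 644 TPM with A9 and at 687, 699 and 672 TPM with DMSO in MOLM-13, where the A9 samples were all below (log2 fold change -0.08, SE 0.05). In MONO-MAC-6 the groups overlapped, with 500, 478 and 503 TPM against 360, 554 and 519 TPM. NOLC1, which binds snoRNPs, had log2 fold changes of -0.33 (SE 0.20, MOLM-13) and 0.31 (SE 0.26, MONO-MAC-6). They were -0.14 without A9 sample 3 of MOLM-13 and -0.0042 without DMSO sample 1 of MONO-MAC-6. LYAR, a nucleolar zinc finger protein, had 0.03 (SE 0.07) and -0.14 (SE 0.09). GNL3, nucleostemin, had -0.14 (SE 0.09) and -0.07 (SE 0.11).

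The core proteins of the snoRNPs were the most uniform role in MOLM-13, with all 4 estimates between -0.19 and -0.13. FBL, fibrillarin, methylates ribosomal RNA and had the smallest unadjusted p in that line. It was at 493, 497 and 484 TPM with A9 and at 535, 539 and 580 TPM with DMSO, so the groups did not overlap. The log2 fold change was -0.17 (SE 0.06, limma adjusted p = 0.488). In MONO-MAC-6, FBL was at 729, 708 and 740 TPM with A9 and at 872, 719 and 736 TPM with DMSO, which overlapped. NOP56 and NOP58, which hold the box C/D RNAs, had all A9 samples below in MOLM-13, with log2 fold changes of -0.14 (SE 0.06) and -0.13 (SE 0.06). They parted in MONO-MAC-6, where NOP56 had all A9 samples below (-0.11, SE 0.07) and NOP58 all above (0.17, SE 0.09). DKC1, dyskerin, the pseudouridine synthase of box H/ACA particles, had -0.19 (SE 0.15) and 0.22 (SE 0.24).

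Estimates for the 9 small subunit processome genes ran from -0.59 to 0.01 in MOLM-13 and from -0.18 to 0.61 in MONO-MAC-6. WDR3 was at 24.2, 28.4 and 9.30 TPM with A9 and at 40.6, 29.2 and 19.6 TPM with DMSO in MOLM-13. In MONO-MAC-6 it was at 24.5, 23.7 and 22.3 TPM with A9 and at 5.82, 21.4 and 25.9 TPM with DMSO. Both comparisons overlapped, with 1 low sample in each. The MOLM-13 log2 fold change of -0.59 (SE 0.44) was -0.12 without A9 sample 3, and the MONO-MAC-6 log2 fold change of 0.61 (SE 0.50) was -0.0042 without DMSO sample 1.

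UTP20 behaved alike, with 0.48 (SE 0.31) in MONO-MAC-6 and 0.12 without that sample. RRP9, a protein of the U3 snoRNP, did not. It was at 66.2, 63.6 and 64.6 TPM with A9 and at 59.9, 46.4 and 49.8 TPM with DMSO in MONO-MAC-6, an estimate of 0.32 (SE 0.11, adjusted p = 0.189 by limma). Its DMSO sample 1 was the highest of the 3, and without it the log2 fold change was 0.42 (limma adjusted p = 0.00113). In MOLM-13 the estimate for RRP9 was 0.01 (SE 0.07). The others, WDR43, PWP2, NOP14 and BYSL, were between -0.25 and -0.14 in MOLM-13 and between -0.08 and 0.24 in MONO-MAC-6. The helicase DDX10 had -0.06 (SE 0.13) in MOLM-13 and -0.18 (SE 0.14) in MONO-MAC-6.

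The 14 genes of 60S assembly centred at -0.03 for MOLM-13 and at 0.16 for MONO-MAC-6. PES1, BOP1 and WDR12 form one complex that processes the 60S precursor. PES1 had log2 fold changes of -0.01 (SE 0.06) and -0.05 (SE 0.10), BOP1 had -0.01 (SE 0.06) and 0.06 (SE 0.13), and WDR12 had 0.14 (SE 0.08) and 0.15 (SE 0.10). DDX21 was at 198, 204 and 120 TPM with A9 and at 274, 230 and 186 TPM with DMSO in MOLM-13, which overlapped (log2 fold change -0.42, SE 0.24, limma adjusted p = 0.777, and -0.17 without A9 sample 3). The MONO-MAC-6 values were 112, 105 and 103 TPM with A9 and 52.0, 101 and 103 TPM with DMSO. There the log2 fold change was 0.38 (SE 0.26, limma adjusted p = 0.418), and 0.07 without DMSO sample 1.

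NOP2, a methyltransferase of 28S RNA, had -0.17 (SE 0.26) in MOLM-13 and 0.52 (SE 0.26, limma adjusted p = 0.312) in MONO-MAC-6. The first was 0.08 without A9 sample 3, and the second was 0.21 without DMSO sample 1. RRS1 in MONO-MAC-6 was at 51.7, 46.7 and 48.2 TPM with A9 and at 34.1, 41.5 and 41.7 TPM with DMSO. All A9 samples were above, with an estimate of 0.32 (SE 0.11, adjusted p = 0.186 by limma). NOP16, NOC2L, NOC3L, DDX18, GRWD1, PPAN, MRTO4 and NIP7 had estimates between -0.27 and 0.07 in MOLM-13 and between -0.13 and 0.32 in MONO-MAC-6. PPAN is transcribed with its neighbour in a read-through transcript, so its value is less certain.

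**Figure D3:**
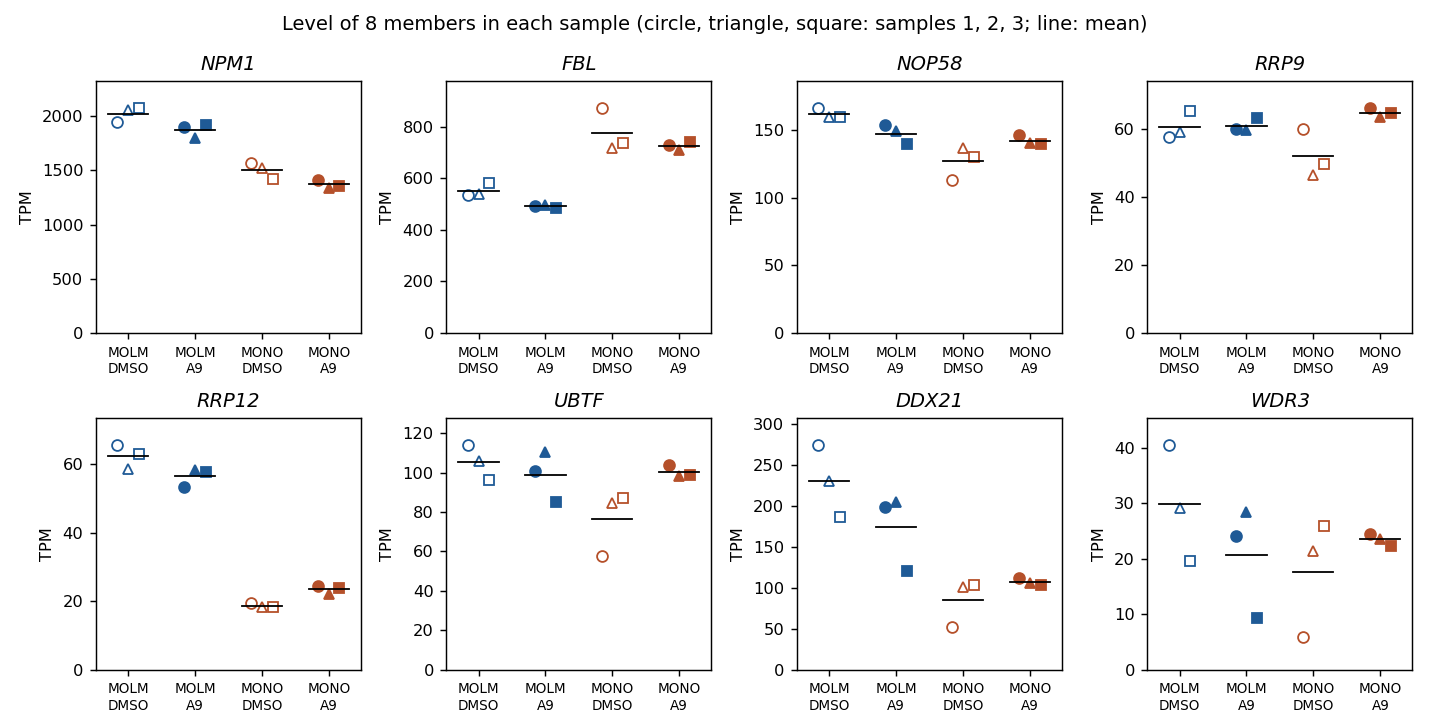
TPM of 8 members in each of the 12 samples, on linear axes that start at 0. Open marks are DMSO, filled marks are A9, blue is MOLM-13, orange is MONO-MAC-6, circle, triangle and square are samples 1, 2 and 3, and lines are means. DDX21 and WDR3 vary most among samples of one group, with the lowest marks at MOLM-13 A9 sample 3 and MONO-MAC-6 DMSO sample 1, while RRP12 differs mainly between the lines.

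The spread among samples followed 1 sample in each line. MOLM-13 A9 sample 3 was the lowest of the 6 MOLM-13 samples for 24 of 37 members, and DMSO sample 1 was the highest for 22. In MONO-MAC-6, DMSO sample 1 was the lowest for 22 members, and A9 sample 1 was the highest for 17. The shares of all genes for these counts are not given here, but the low samples were low for most genes. MOLM-13 A9 sample 3 was below the mean of A9 samples 1 and 2 for 28 of 37 members and 8969 of 11591 genes. MONO-MAC-6 DMSO sample 1 was below the mean of DMSO samples 2 and 3 for 26 of 37 members and 9763 of 12863 genes. Leaving out MONO-MAC-6 DMSO sample 1 moved the estimates of 28 of 37 members by over 1.5 times or changed their sign, and brought 29 closer to 0. Leaving out MOLM-13 A9 sample 3 did so for 28 of 37 and brought 26 closer to 0, and leaving out MOLM-13 DMSO sample 1 did so for 20 and brought 25 closer to 0. The gap was wider for longer transcripts. Across the 37 members, Spearman's rho between TPM-weighted transcript length and the difference of MOLM-13 A9 sample 3 from A9 samples 1 and 2 was -0.68, and over all 11591 genes it was -0.50. For MONO-MAC-6 DMSO sample 1 against the other DMSO samples, rho was -0.63 over the members and -0.52 over all 12863 genes. Genes share libraries and are not independent replicates, so these are descriptions. The 19 members of at most 2191 bases had a median within-group SD of 0.065 for MOLM-13 and 0.11 for MONO-MAC-6. The 18 longer ones, of 2273 to 8899 bases, had 0.25 and 0.31. With each sample's trend on length removed, the members' median log2 fold change was -0.11 for MOLM-13 and 0.02 for MONO-MAC-6, and 0 members were called in either line.

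**Figure D4:**
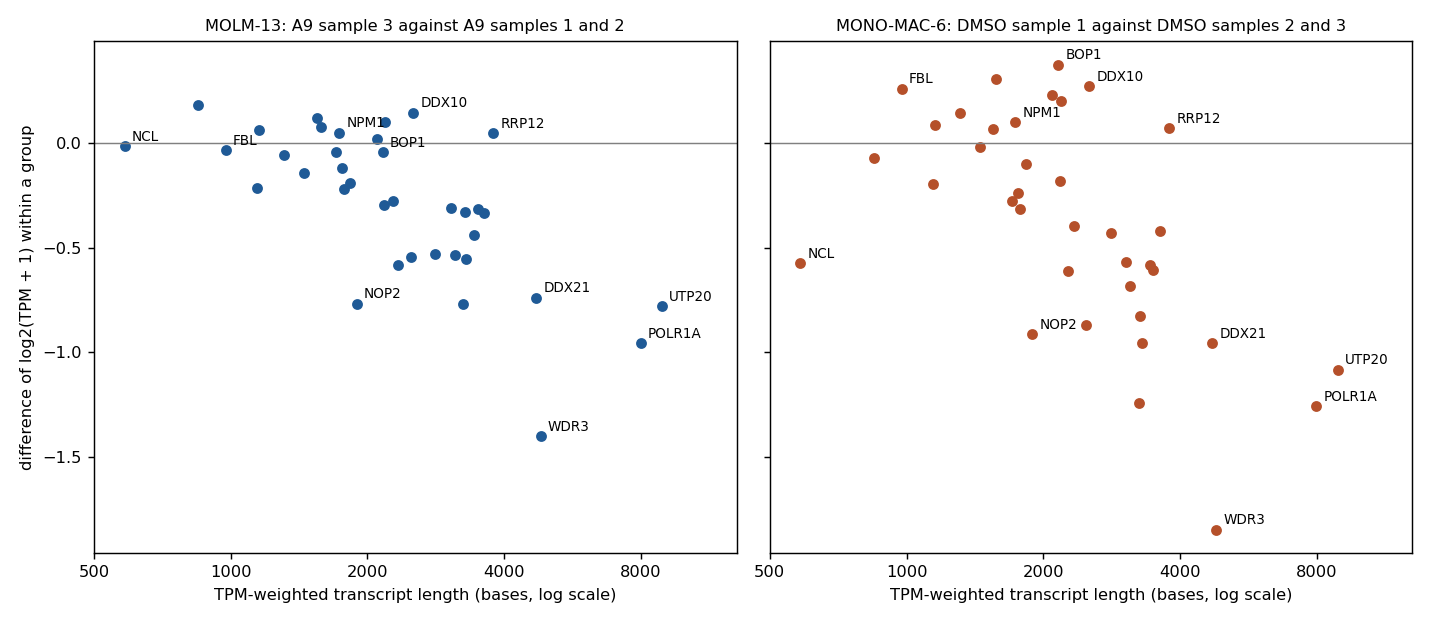
Difference of log2(TPM + 1) between 1 sample and the mean of the other 2 samples of its group, plotted against TPM-weighted transcript length in bases on a log scale. Each point is 1 of the 37 members, with MOLM-13 A9 sample 3 on the left and MONO-MAC-6 DMSO sample 1 on the right. Long members such as WDR3, POLR1A and UTP20 lie lowest, and RRP12, with all its transcripts summed, lies near 0 in both panels despite its length. Its protein-coding transcripts alone were lower in each of these samples than in the others of the group.

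Leaving out MONO-MAC-6 DMSO sample 1 was the single omission that gave called members within a line. Limma then called 5 of 37, against 24.8% of 12918 genes. UBTF (0.22), RRP9 (0.42), RRP12 (0.34) and RRS1 (0.23) were higher, and GNL3 (-0.17) was lower. The 2 DMSO samples that stayed carry that comparison, and the share of members was again below the background.

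The test of a difference of the A9 effect between the lines called 1 member of 37 (2.7%), no larger a share than the 2.99% of all 13402 genes. The member was RRP12 (GENCODE 29, GRCh38, chr10:97356358-97426076, minus strand). In MOLM-13 it was at 53.2, 58.4 and 57.7 TPM with A9 and at 65.6, 58.6 and 63.0 TPM with DMSO, and in MONO-MAC-6 at 24.5, 22.0 and 23.7 TPM with A9 and at 19.3, 18.4 and 18.2 TPM with DMSO. All A9 samples were below DMSO in MOLM-13 and above it in MONO-MAC-6. The estimates were -0.14 (SE 0.07) and 0.31 (SE 0.10), and the interaction was 0.45 (SE 0.10, limma adjusted p = 0.0463). At an unadjusted p under 0.05, 7 members passed (18.9%, background 17.7%). The call was lost when any 1 of 11 samples was left out (adjusted p from 0.0697 to 0.130), and it was kept without MONO-MAC-6 DMSO sample 1 (adjusted p = 0.0289). It was also lost after median-ratio scaling (0.23, adjusted p = 0.480) and after removal of the length trend (0.09, adjusted p = 0.843).

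The transcripts behind the RRP12 value varied between samples. Transcripts annotated as retained introns held 49.8% of RRP12 TPM in MOLM-13 A9 sample 3, against 7.48% and 4.76% in the other A9 samples, and 18.7% in MOLM-13 DMSO sample 3, against 2.03% and 5.63% in the other DMSO samples. They held 46.0% in MONO-MAC-6 DMSO sample 1, against 12.7% and 8.58% in the other DMSO samples. Protein-coding RRP12 transcripts alone were at 46.6, 53.2 and 26.2 TPM with A9 and at 61.4, 52.7 and 47.8 TPM with DMSO in MOLM-13, which overlapped. In MONO-MAC-6 they were at 20.7, 17.8 and 18.4 TPM with A9 and at 9.33, 14.4 and 15.0 TPM with DMSO, all A9 samples being above. On these transcripts the interaction was 0.95 (limma adjusted p = 0.202).

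The interaction was largest for WDR3 at 1.20 (SE 0.74), POLR1A at 1.10 (SE 0.55), DDX21 at 0.80 (SE 0.39) and UTP20 at 0.78 (SE 0.46). It was lowest for RRN3 at -0.18 (SE 0.46), LYAR at -0.17 (SE 0.10), DDX10 at -0.12 (SE 0.19) and MRTO4 at -0.09 (SE 0.11). None of these 8 passed, with limma adjusted p from 0.310 to 0.804. The members' median interaction was 0.30, beside 0.20 over all genes, and 0.07 beside 0.01 after median-ratio scaling.

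Summed over the 37 genes, the levels were 6216, 6311 and 5854 TPM with A9 and 6757, 6609 and 6546 TPM with DMSO in MOLM-13. The A9 samples were all lower, but after median-ratio scaling the sums overlapped, with 6120, 5856 and 6730 against 6065, 6512 and 7001. Without NPM1 the unscaled sums overlapped as well, at 4319, 4511 and 3939 TPM with A9 and 4813, 4555 and 4471 TPM with DMSO. In MONO-MAC-6 the sums were 5812, 5488 and 5589 TPM with A9 and 5408, 5787 and 5693 TPM with DMSO, which overlapped. There the scaled sums did not overlap, with 5386, 5130 and 5349 for A9 below 6996, 5629 and 5418 for DMSO. Without NPM1 the scaled sums of that line overlapped narrowly, with 4077, 3879 and 4047 for A9 and 4962, 4153 and 4071 for DMSO.

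The tables held 316 transcripts of the 37 genes. None of the 180 tested in MOLM-13 (background 0.00982%) and none of the 185 tested in MONO-MAC-6 (background 0.406%) passed limma at an adjusted p under 0.05, while 8 (background 5.34%) and 29 (background 16.3%) had an unadjusted p under 0.05. Protein-coding transcripts held at least 75% of the DMSO level for 29 members of MOLM-13 and 28 of MONO-MAC-6, and under 50% for NOP56 and WDR12 in both lines. WDR12 was almost wholly in short transcripts annotated as retained introns, with 93.7% ± 0.49 (SD, n = 3) of its TPM in MOLM-13 DMSO and 98.0% ± 3.45 (SD, n = 3) in MONO-MAC-6 DMSO. NCL was mostly in 1 transcript of 568 bases, which held 81.8% of its DMSO level for MOLM-13 and 84.0% for MONO-MAC-6. Values given to such short models are less certain as gene levels.

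NOP56, the host of 5 small nucleolar RNA genes, had its highest single transcript in a processed, non-coding transcript of 1143 bases. That transcript held 45.7% of NOP56 TPM with DMSO and 37.9% with A9 in MONO-MAC-6, and its log2 fold change was -0.37 (SE 0.08, limma adjusted p = 0.170). In all, 26 small nucleolar RNA genes lie within 8 of the members, led by GNL3 with 6, and poly(A) selection of the libraries does not measure the small RNAs themselves. The lowest adjusted p in MONO-MAC-6 belonged to a retained-intron transcript of BOP1, 734 bases long, at 0.74 (SE 0.14, limma adjusted p = 0.126). Retained-intron transcripts held 7.22%, 7.80% and 7.40% of BOP1 TPM with A9 and 3.43%, 4.46% and 4.48% with DMSO in that line.

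Over all members together, retained-intron transcripts held 6.05%, 6.10% and 5.70% of TPM with A9 and 4.53%, 5.34% and 4.96% with DMSO in MONO-MAC-6. In MOLM-13 the shares were 4.51%, 4.79% and 5.15% with A9 and 4.45%, 3.96% and 4.19% with DMSO. The A9 samples were higher in both lines, by little in MOLM-13, where sample 1 of A9 and sample 1 of DMSO nearly met. In MOLM-13 A9 sample 3, the highest of that line, RRP12 alone held 28.7 TPM in such transcripts. These shares were noticed in the data and were not tested. The share over all genes is not given here, so whether the difference is particular to the members is not known.

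Another 94 genes of the pathway, in 4 lists, were not called either. Limma called 0 of 94 at an adjusted p under 0.05 in MOLM-13, in MONO-MAC-6 and for the interaction, beside backgrounds of 0.121%, 3.37% and 2.99%. At an unadjusted p under 0.05, 3 passed in MOLM-13 (3.19%, background 7.90%), 4 passed in MONO-MAC-6 (4.26%, background 20.5%) and 12 passed for the interaction (12.8%, background 17.7%). Their median log2 fold changes were -0.08 for MOLM-13 and 0.12 for MONO-MAC-6. By list, the 11 other polymerase I genes had medians of -0.12 and 0.02, and the 11 other snoRNP genes had -0.05 and -0.10. The 34 other genes of the small subunit had -0.12 and 0.17, and the 38 other 60S genes had -0.07 and 0.12.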

How the data were processed

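Poly(A) RNA of 36 libraries was sequenced, per the labels' protocols. The authors deposited TPM per Ensembl transcript, 1 table per line. The submitters' processing notes name kallisto, limma and GRCh38, without roles or versions, and the annotation release is not given in the sources used here. Of 207175 transcripts, 162526 (78.5%) matched GENCODE 29 and held 89.8% to 91.4% of TPM. They were summed by symbol, and unmatched transcripts were left out. Repeat libraries were averaged, genes whose group mean reached 1 TPM in either treatment were kept, and log2(TPM + 1) was fitted with limma 3.58.1 (lmFit, eBayes with trend and robust) in R 4.3.3. Tests were two-sided with Benjamini-Hochberg adjustment over all genes tested, and the interaction was fitted on all 12 samples. Promoters came from RefSeq. Transcript lengths and classes are those of GENCODE 29, which the authors may not have used. Tables and figures used Python 3.11.15, pandas 2.3.3 and matplotlib 3.10.9.

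On simulated data, 200 genes above a minimum mean level were changed by 1.5 log2 units. The noise was normal and independent between genes and samples, so it held no sample that stood apart and no trend on length. In MOLM-13 (11591 genes) 86% were called, with 8 false calls, and in MONO-MAC-6 (12863 genes) 78.5%, with 6. The change of 1.5 log2 units exceeded every member's estimate within a line, the largest being 0.76 for POLR1A in MONO-MAC-6. These rates therefore do not give the recovery of changes as small as the members' estimates. With nothing changed, 0 were called.

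The members and lists were chosen with earlier results of these data known. Named with values were the 6 members with the largest change per line, the 4 highest and 4 lowest interactions, and NCL, NPM1, FBL, UBTF, POLR1A and RRN3. Other members, among them RRP9, RRS1, NOP56, WDR12 and BOP1, were singled out after their values were seen. The settings varied were the pseudocount (0.1), the filter (none, or a minimum of 5 TPM), a replicate block, median-ratio scaling, removal of the length trend, averaging by the second number, and omission of each sample. Protein-coding transcripts alone were added after the data were seen.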

Additional observations from a re-analysis of the deposited data

Results flagged for a closer look

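The A9 effect on RRP12 differed between the lines by 0.45 log2 units (MONO-MAC-6 minus MOLM-13, SE 0.10, limma adjusted p = 0.0463 for the interaction), with all 3 A9 samples below DMSO in MOLM-13 and all 3 above in MONO-MAC-6. Line and dose cannot be told apart in this difference. With 1 sample left out at a time, the interaction ranged from 0.41 to 0.50, and the call was lost on leaving out any of 11 of the 12 samples. The interaction was 0.23 with median-ratio scaling and 0.09 with the length trend removed, neither of which passed. The 1 call among 37 members (2.7%) lies beside 2.99% of all genes called.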

How the results depend on the processing

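The 0 called members within each line stayed at 0 with a pseudocount of 0.1, no filter, a minimum of 5 TPM, the replicate block, median-ratio scaling, length-trend removal and protein-coding transcripts alone. Averaging by the second number gave 27 in MOLM-13, 33 in MONO-MAC-6 and 28 for the interaction. There the spread is only that among libraries sharing a first number, which may be repeats of the same sample. Omitting 1 sample gave 0 each time in MOLM-13, 0 to 5 in MONO-MAC-6 (5 without DMSO sample 1) and 0 to 2 for the interaction, whose count of 1 remained at 1 with a minimum of 5 TPM. That count was 0 with a pseudocount of 0.1 (RRP12 adjusted p = 0.0534), with no filter (0.0682), with the replicate block (0.155), with median-ratio scaling, with length-trend removal and with protein-coding transcripts alone. Transcript calls were 0 in both lines under each of the 4 alternatives run. Counts over all genes moved more. The 14 of MOLM-13 became 2 to 8 with 1 sample omitted and 4 to 5436 otherwise, the 433 of MONO-MAC-6 became 59 to 3203 and 94 to 8700, and the 401 of the interaction became 197 to 549 and 207 to 8501.

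Same-numbered DMSO and A9 samples did not deviate together in every pair (r across genes of 0.36, -0.08 and 0.68 in MOLM-13, and -0.03, 0.09 and -0.09 in MONO-MAC-6). The 0.68 of the samples numbered 3 was the highest r of any pair. With 3 samples per group the deviations depend on each other. These values therefore cannot settle whether same-numbered samples share more than a number. MOLM-13 DMSO sample 1 correlated best with A9 sample 2. The replicate block left 0 members called in each line. Of 37 members, 26 kept their sign under all 14 alternatives in MOLM-13, and 19 did in MONO-MAC-6. TPM keep no depth, so counting error could not be given.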
